A study of Homo sapiens with 20 samples.

Results

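The TRIM genes were taken as the 67 of 43366 gene rows whose name is TRIM followed only by a number, and they were followed across 20 RNA-seq libraries. A further 22 rows carry TRIM in a longer name, such as TRIM6-TRIM34, and were left out of the family counts. The libraries came from U2OS cells, a human osteosarcoma line, as 5 WT clones and 5 ZBTB48 KO clones. Each clone was sampled without treatment and 24 h after the addition of IFNγ at 250 U/ml, which gave 4 groups of 5 libraries, and every library is 1 clone. The WT clones are labelled WT1, WT3, WT4, WT5 and WT6 and the KO clones KOC3, KOC5, KOD2, KOE2 and KOF4, and values listed clone by clone follow this order. ZBTB48 is a zinc finger protein that binds telomeric repeats and activates some promoters, and the design asks how its loss alters transcription when IFNγ is added.

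TRIM proteins share a RING finger, 1 or more B-boxes and a coiled coil, and most act as E3 ubiquitin ligases whose C-terminal domain selects the substrate. Many of those with a PRY/SPRY domain take part in antiviral defence, some by binding viral capsids and some by modifying sensors of viral RNA or their signalling partners. IFNγ binds its receptor, and the signal reaches gamma-activated sites in the promoters of target genes, while IRF proteins made in response bind interferon-stimulated response elements.

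Total counts ranged from 46652288 to 72952859 per library, so that 3 counts, taken as the floor of detection, came to between 0.0409 and 0.0608 CPM, counts scaled to the size of the library after edgeR's TMM normalization. ZBTB48 mRNA stood at 1.27 to 5.17 CPM in 8 of the 10 KO-labelled libraries and at 8.05 to 11.7 CPM in the WT libraries. Both libraries of KOD2, a clone labelled KO, lay above the other KO-labelled libraries, with 11.3 CPM untreated and 15.97 CPM treated. Counts of mRNA cannot tell whether working protein is made, so they do not decide the genotype of KOD2, which was not tested. The paper reports CIITA protein as low or undetectable in its KO clones given IFNγ. Treated and untreated libraries of the same clone resembled each other across genes in the WT clones and in KOC3, KOC5 and KOD2, with correlations of their deviations from the group means of 0.709 or more. Those of KOE2 and KOF4 did not (-0.0084 and 0.058). The untreated KOE2 library was most like the treated KOF4 library (0.779) and the untreated KOF4 library most like the treated KOE2 library (0.866). Whether labels were exchanged was not tested. Changes given clone by clone follow the labels. In KO-labelled libraries the count of called genes and the values of some genes are also given without KOE2 and KOF4. Of the osteoblast markers, SPARC (634 to 3300 CPM) and COL1A1 (279 to 5598 CPM) were abundant. RUNX2 ranged from 18.6 to 90.4 CPM and ALPL from 0.986 to 22.2 CPM, whereas COL1A2, SP7, BGLAP and IBSP stayed under 1 CPM in every library. The leukocyte marker PTPRC also stayed under 1 CPM. Of the epithelial markers, KRT14 reached 43.8 CPM, EPCAM 12.6, CDH1 4.61 and KRT5 1.43 CPM in the highest library of each. In bulk RNA, more cells with a transcript and more transcript per cell cannot be told apart.

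Response elements were searched in the 300 bases around the start site of each gene, from 250 before to 50 after it, as given by RefSeq for GRCh38.p14. Such windows were found for 53 of the 67 TRIM genes, 72 windows in all since 11 genes have more than 1. A core form of the interferon-stimulated response element (ISRE), written as GAAA, any 2 bases and GAAA on either strand, occurred in 9 of the 72 windows (12.5%), against 3.57% of the 35116 RefSeq promoters. The core of the gamma-activated site (GAS), written as TTC, any 3 bases and GAA, occurred in 12 windows (16.7%), against 7.66% of all promoters. The sequences below run 5′ to 3′ along the transcribed strand, with matches to the ISRE letters in capitals. Where a gene had more than 1 window, that with the most ISRE matches was taken. Those of TRIM14, TRIM69, TRIM5 and TRIM34 cover the 120 bases up to a start site, and each holds the match within 90 bases of it. The start site used for TRIM34 lies inside the gene as counted, which begins at base 5619944 of chromosome 11. TRIM14 and TRIM69 are shown since their counts after IFNγ are described below, and TRIM5 and TRIM34 as neighbours of TRIM22 on chromosome 11. TRIM44 and TRIM16 also hold a match within 90 bases and are not shown. For TRIM21 only the 30 bases from 12 to 41 after the start are shown, which hold a pair of overlapping matches. TRIM25 and TRIM38 are shown because both are described below among the responding genes and hold neither motif in these windows.
TRIM21, chr11:4393662-4393691, reverse strand: tgagcgGAAACTGAAAGTGAAAtagggagc
TRIM14, chr9:98119223-98119342, reverse strand: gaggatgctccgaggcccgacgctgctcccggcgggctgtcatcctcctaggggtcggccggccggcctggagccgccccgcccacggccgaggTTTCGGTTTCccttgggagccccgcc
TRIM69, chr15:44736408-44736527, forward strand: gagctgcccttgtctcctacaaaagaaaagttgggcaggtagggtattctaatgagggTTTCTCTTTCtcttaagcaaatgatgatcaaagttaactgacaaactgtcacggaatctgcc
TRIM5, chr11:5685075-5685194, reverse strand: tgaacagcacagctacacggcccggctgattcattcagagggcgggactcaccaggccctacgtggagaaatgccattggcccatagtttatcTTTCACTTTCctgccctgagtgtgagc
TRIM34, chr11:5624881-5625000, forward strand: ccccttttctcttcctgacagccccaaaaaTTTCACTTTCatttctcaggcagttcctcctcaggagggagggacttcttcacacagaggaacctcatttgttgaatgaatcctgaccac
TRIM25, chr17:56914050-56914169, reverse strand: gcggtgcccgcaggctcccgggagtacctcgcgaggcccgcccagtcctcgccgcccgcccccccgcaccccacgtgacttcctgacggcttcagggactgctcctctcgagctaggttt
TRIM38, chr6:25962682-25962801, forward strand: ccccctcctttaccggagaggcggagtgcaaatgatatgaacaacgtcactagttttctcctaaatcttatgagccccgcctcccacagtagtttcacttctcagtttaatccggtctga
The other ISRE matches lay in the windows of TRIM2, TRIM16, TRIM26 and TRIM44. A match describes the letters only, and no binding was measured here.

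Of the 67 TRIM genes, 43 were expressed, taken as a median of at least 1 CPM in at least 1 group. A further 17 were low, with some counts but under that level, and 7 were not detected, with at most 3 counts in any library. By group, 41 genes reached a median of 1 CPM in untreated WT clones, 41 in treated WT clones, 41 in untreated and 43 in treated KO-labelled libraries. The expressed genes included all 4 of the PHD-bromodomain group, which regulate chromatin, 3 of the 4 with NHL repeats, 23 of the 36 with a SPRY domain and 3 of the 8 with a COS box, a motif that binds microtubules. All 5 genes with another C-terminal domain were expressed, and 5 of the 10 with none known.

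Among the low genes, TRIM74, TRIM69, TRIM54, TRIM55 and TRIM31 had enough counts for a test of the IFNγ response in WT clones. TRIM73, TRIM43, TRIM67, TRIM71, TRIM10, TRIM50, TRIM34, TRIM48, TRIM72, TRIM51, TRIM49 and TRIM63 did not, and their highest counts in any library lay between 4 and 25. TRIM75, TRIM40 and TRIM61 reached 2, 2 and 1 counts at most, and TRIM42, TRIM60, TRIM64 and TRIM77 were at 0 in all 20 libraries. Only uniquely mapped reads were counted, so low values of genes with near-identical copies, such as TRIM73 with TRIM74 and TRIM49 with its lettered copies, are uncertain.

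Levels were compared between genes only per length, as CPM per kilobase of exon. TRIM28, the KRAB zinc finger corepressor also called KAP1, was the most abundant in each group by its median, from 81.6 to 97.7 CPM per kb. It also varied widely between clones, from 39.2 to 180 CPM per kb. Its CPM in the treated WT clones was 346, 291, 275, 148 and 132, close to the 342, 332, 293, 146 and 161 CPM of the same clones untreated. These clones thus differed more from each other than by treatment. In untreated WT clones TRIM27, which acts in endosomal sorting and transcription, came next by the median at 22.1 CPM per kb, followed by TRIM8 at 21.8 and TRIM25 at 17.8. TRIM22 was 12th there, at 9.99 CPM per kb. After IFNγ TRIM22 was the second most abundant, at 70.8 CPM per kb in WT clones and 81.9 in KO-labelled libraries. In WT clones the treated medians of TRIM25 (49.3 CPM per kb) and TRIM21 (36.6) followed, ahead of TRIM8 at 35.1, whose values overlapped those of TRIM21. In treated KO-labelled libraries TRIM8 (40.02) stood ahead of TRIM21 (33.0).

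**Figure D1:**
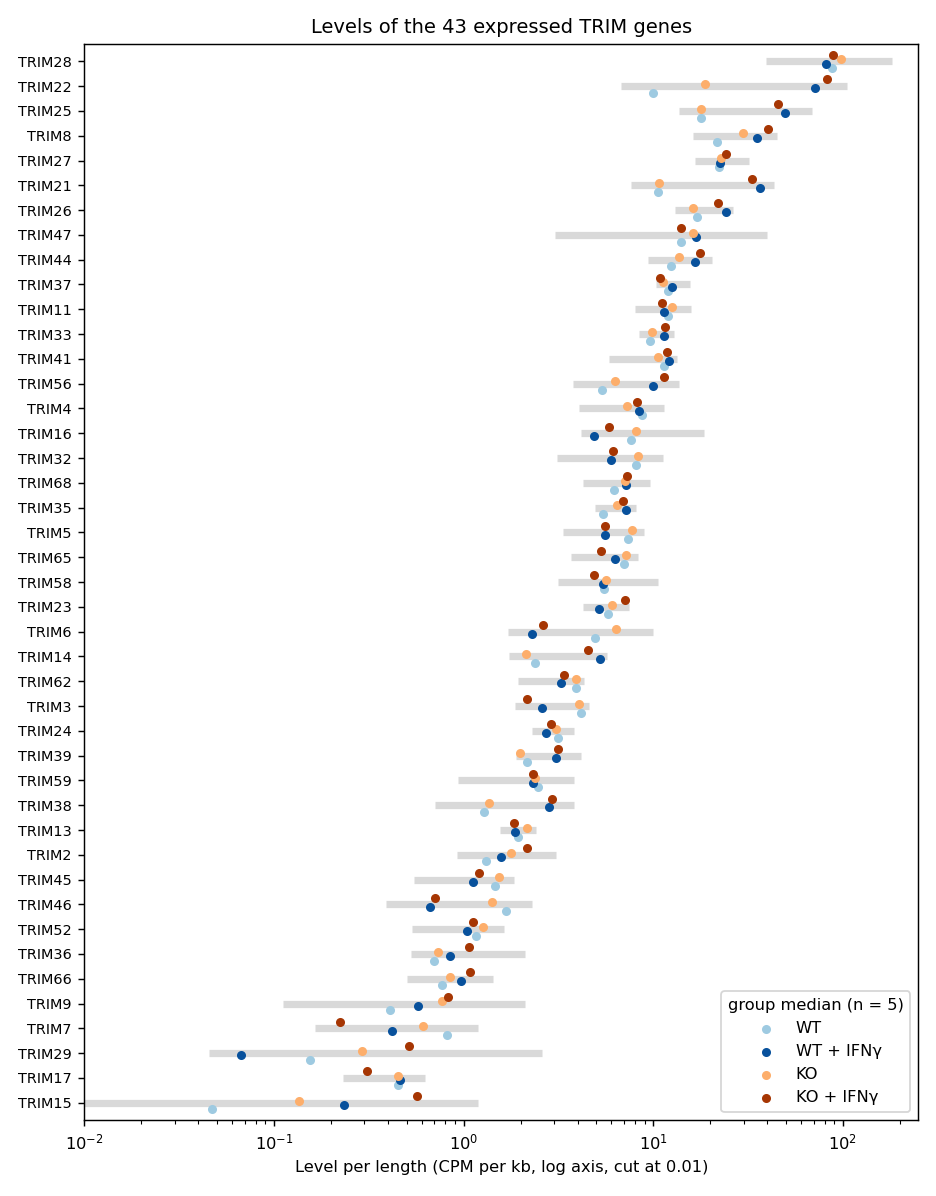
Level per length (CPM per kb of exon, log axis) of the 43 expressed TRIM genes, ordered by the mean over 20 libraries. Points are the medians of the 4 groups (n = 5 each) and grey bars run from the lowest to the highest of the 20 libraries. TRIM28 leads in every group, and TRIM22 moves from 9.99 to 70.8 CPM per kb in WT clones.

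The summed level of the family per length ranged from 305 to 397 in untreated and from 438 to 545 CPM per kb in treated WT clones. In KO-labelled libraries it ranged from 353 to 462 and from 485 to 565. The groups did not overlap within either genotype. TRIM14, TRIM21, TRIM22, TRIM25 and TRIM38 were picked as the genes that rose in treated WT clones of these same data, by the rule given below. Their larger share after treatment, and the smaller change of the rest, follow from that choice. Together they made up a median of 12.4% of that sum in untreated and 33.0% in treated WT clones, and 11.8% and 32.9% in KO-labelled libraries. The other 62 genes summed to 266 to 349 in untreated and 274 to 365 in treated WT clones, which overlapped.

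The first comparison asked which TRIM genes respond to IFNγ in WT clones. A gene was called when edgeR's quasi-likelihood test gave a Benjamini-Hochberg adjusted p below 0.01 and the change exceeded 2-fold. Unless a block is named, the fit took treated and untreated libraries of a clone as independent. Of the 48 TRIM genes with enough counts, 5 rose and 1 fell, where 3.0% of all genes tested were called (2.48% higher, 0.512% lower). TRIM22, TRIM21, TRIM25, TRIM38 and TRIM14 rose and TRIM6 fell. All 6 belong to the genes with a SPRY domain, among which TRIM14 lacks the RING finger. The median log2 fold change over the 48 genes was 0.01, beside -0.03 over all genes tested. The looser rule of an adjusted p under 0.05 with any fold took in 13 genes (10 higher, 3 lower), where 11.3% of all genes passed it (6.98% higher, 4.30% lower).

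The same comparison in KO-labelled libraries called 4 of 47 TRIM genes, all higher, where 1.96% of all genes were called (1.70% higher, 0.258% lower). These were TRIM22, TRIM21, TRIM25 and TRIM14, each also called in WT clones. The looser rule took in 8 genes, all higher, where 7.88% of all genes passed (5.41% higher, 2.47% lower). The median over the 47 genes was 0.14, beside -0.03 over all genes. Without KOD2 4 genes were called, where 0.826% of all genes were. Without KOE2 and KOF4, with 3 clones a group, 0 were called by edgeR, where 22 of 19633 genes (0.112%) were, with log2 fold changes of 2.46 for TRIM22, 1.69 for TRIM21, 1.48 for TRIM25 and 0.94 for TRIM14 and adjusted p values from 0.033 to 0.11. With the clone as a block and without KOE2 and KOF4, TRIM21 and TRIM25 were called, where 1.56% of all genes were. Without KOE2 alone, 2 were called, where 0.676% of all genes were.

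TRIM22, an antiviral TRIM that represses retroviral transcription, had the largest rise of the called genes. Untreated WT clones had 37.9, 25.1, 27.9, 28.8 and 83.7 CPM, and the same clones treated had 204, 204, 229, 177 and 303 CPM. Libraries labelled KO had 41.5, 19.6, 63.0, 55.4 and 54.1 CPM untreated and 240.0, 237, 216, 283 and 218 CPM treated. Every treated library lay above every untreated one, and WT6 was high in both states. The rise was 5.45-fold in WT clones (log2 2.45 ± 0.34 SE, adjusted p 0.00090 by edgeR) and 5.11-fold in KO-labelled libraries (2.35 ± 0.27, adjusted p 0.00041). Without WT1 the adjusted p in WT clones was 0.011, at log2 2.33 or above in each fit that left out 1 clone.

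TRIM21 is the cytosolic antibody receptor that sends antibody-coated viruses to the proteasome. In WT clones it went from 20.4, 26.0, 28.2, 14.8 and 17.7 CPM to 70.8, 71.7, 84.0, 50.4 and 68.6 CPM. In KO-labelled libraries it went from 20.7, 14.7, 23.2, 20.1 and 23.0 CPM to 60.9, 64.1, 67.4, 63.9 and 54.4 CPM. No treated library overlapped an untreated one, and treated WT5 was the lowest of the treated. The log2 fold change was 1.68 ± 0.19 (SE, adjusted p 0.00022 by edgeR) in WT clones and 1.61 ± 0.14 (adjusted p 4.5e-05) in KO-labelled libraries, and it was called whichever single clone was left out.

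TRIM25, which ubiquitinates the RNA sensor RIG-I and is itself modified by ISG15, ranged from 79.0 to 117 CPM (median 102) in untreated and from 203 to 288 CPM (median 283) in treated WT clones. Libraries labelled KO ranged from 79.2 to 112 CPM (median 103) and from 185 to 395 CPM (median 260). Treated libraries lay above untreated ones in both genotypes, with treated KOD2 the highest and KOF4 the lowest. The log2 fold change was 1.36 ± 0.14 in WT clones (adjusted p 0.00011 by edgeR) and 1.42 ± 0.19 in KO-labelled libraries (adjusted p 0.0015). In the latter the adjusted p reached 0.017 when 1 clone was left out.

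TRIM14, which acts at the mitochondrial adaptor MAVS and stabilises the DNA sensor cGAS, ranged from 20.3 to 27.9 CPM in untreated and from 46.2 to 57.0 CPM in treated WT clones. In KO-labelled libraries the ranges were 17.2 to 26.3 and 40.6 to 52.9 CPM. The spread within each group was small beside the change. Its log2 fold change was 1.09 ± 0.11 in WT clones (adjusted p 0.00012 by edgeR) and 1.04 ± 0.14 in KO-labelled libraries (adjusted p 0.0011). The change sits near the 2-fold limit, and in KO-labelled libraries the call held in 2 of the 5 fits that left out 1 clone, with log2 fold changes from 0.95 to 1.16. There the change was under 2-fold with shrinkage by DESeq2 (0.992) and with library totals (0.998).

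TRIM38, described as a brake on TLR and TNF signalling and as a SUMO ligase for cGAS, ranged from 11.3 to 22.9 CPM in untreated and from 31.7 to 48.1 CPM in treated WT clones. Libraries labelled KO went from 13.9 to 24.4 CPM up to 31.0 to 61.6 CPM. The groups did not overlap in either genotype. The log2 fold change was 1.12 ± 0.19 in WT clones (adjusted p 0.0030 by edgeR) and 1.11 ± 0.22 in KO-labelled libraries, where the adjusted p of 0.012 missed the limit. With the clone as a block the latter was 0.0025, at a log2 fold change of 1.084, but 0.020 with the block and without KOE2 and KOF4, whose libraries did not pair. In WT clones the call held in 1 of the 5 fits without 1 clone. It was lost with shrinkage by DESeq2, at a log2 fold change of 0.996.

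**Figure D2:**
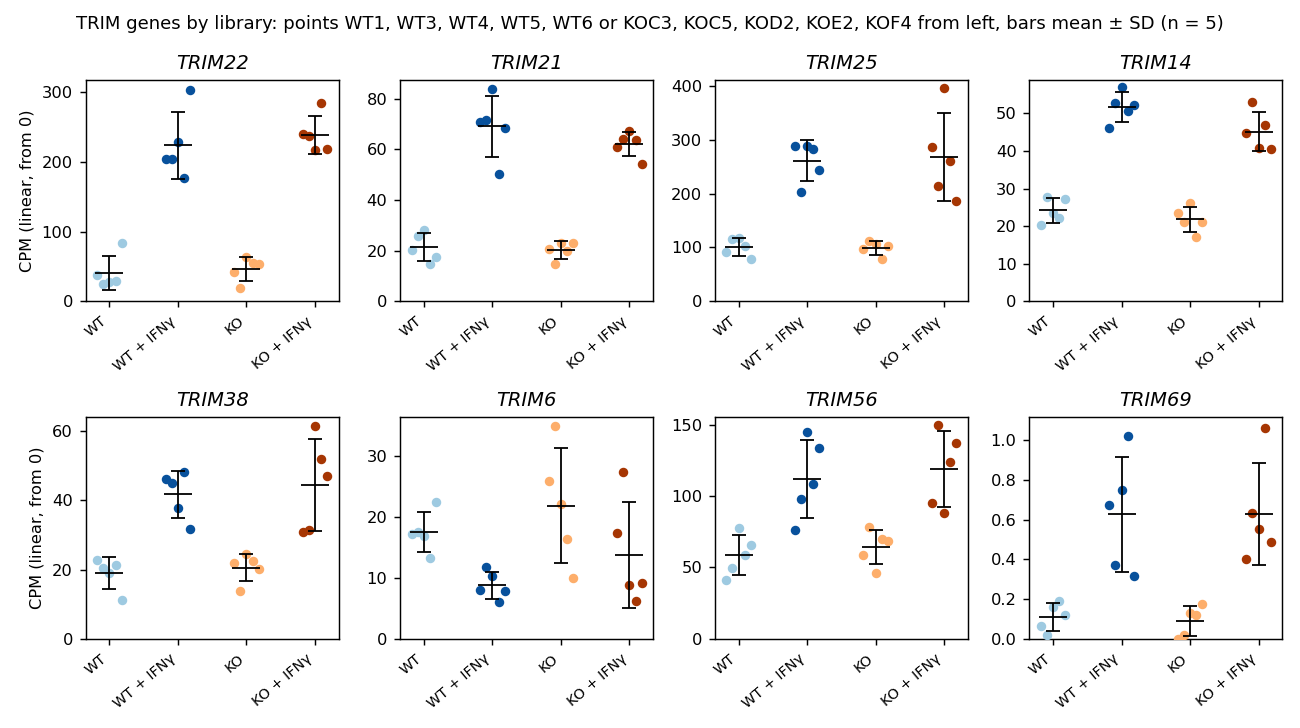
CPM in each of the 20 libraries for 8 TRIM genes, on linear axes from 0; points are the clones in the order WT1, WT3, WT4, WT5 and WT6 or KOC3, KOC5, KOD2, KOE2 and KOF4 from left to right, and bars give the mean ± SD (n = 5). TRIM22, TRIM21, TRIM25, TRIM14 and TRIM38 have no treated library below an untreated one of the same genotype, while the KO-labelled libraries overlap for TRIM6.

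TRIM6, which makes unanchored ubiquitin chains that activate the kinase IKKε, was the 1 gene called lower. WT clones went from 17.3, 17.6, 16.9, 13.3 and 22.5 CPM to 7.98, 11.7, 10.3, 5.97 and 7.90 CPM, with no overlap. Libraries labelled KO went from 25.9, 35.0, 22.1, 16.4 and 10.0 CPM to 17.4, 27.4, 8.89, 6.19 and 9.16 CPM, which overlapped, and each KO clone was lower after treatment. The log2 fold change was -1.01 ± 0.20 in WT clones (adjusted p 0.0076 by edgeR) and -0.67 ± 0.43 in KO-labelled libraries (adjusted p 0.38). The WT call was lost in each of the 5 fits that left out 1 clone (adjusted p up to 0.051) and when all 20 libraries were fitted together (0.078). It was also lost with shrinkage by DESeq2, at a log2 fold change of -0.892. The responses of the genotypes differed by -0.35 ± 0.49 on the log2 scale, with an adjusted p of 1.00.

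TRIM6 is 1 of 4 TRIM genes in a stretch of 122 kb on chromosome 11 (chr11:5588635-5710863, GRCh38.p14), with TRIM34 and TRIM22 on the same strand and TRIM5 on the other. TRIM5, the restriction factor that binds retroviral capsids, spans TRIM6 and TRIM34 but shares no exon base with them. It holds the ISRE letters 27 bases before its start site, and it did not pass the test: its log2 fold change was -0.23 ± 0.24 in WT clones (adjusted p 0.61 by edgeR) and -0.35 ± 0.16 in KO-labelled libraries (adjusted p 0.23). Its CPM in WT clones was 56.8, 57.5, 60.3, 29.7 and 57.6 untreated and 43.4, 56.0, 59.6, 26.1 and 39.4 treated. WT5 was low in both states, and the groups overlapped.

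TRIM34 had 0 to 9 counts per library and could not be tested. However, 90.0% of its exon bases are also annotated to the readthrough gene TRIM6-TRIM34, which had 0 to 2 counts, and 35.7% of those of TRIM6 are. How reads on bases shared by several genes were counted is not given in the sources used here, so the level of TRIM34 is uncertain. The neighbours TRIM22, TRIM6 and TRIM5 thus gave a rise, a fall in WT clones and no call. TRIM21 lies 1195 kb from this stretch on the same chromosome, which holds 15 of the 67 TRIM genes, 9 of them tested.

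TRIM69 and TRIM15 had log2 fold changes above 2 at far lower counts than TRIM22. With shrinkage by DESeq2 those of TRIM69 were 1.22 in WT clones and 1.24 in KO-labelled libraries and those of TRIM15 0.85 and 0.60, beside 1.85 and 1.96 for TRIM22. TRIM69, which binds microtubules and restricts vesicular stomatitis virus, had 4, 1, 8, 12 and 7 counts in untreated WT clones and 36, 22, 55, 60 and 17 in treated ones. Libraries labelled KO had 0, 1, 8, 7 and 9 counts untreated and 25, 43, 29, 59 and 27 treated. No treated library overlapped an untreated one. The log2 fold change was 2.45 ± 0.55 in WT clones (adjusted p 0.015 by edgeR) and 2.76 ± 0.67 in KO-labelled libraries (adjusted p 0.030), so that neither was called. With the clone as a block the adjusted p was 0.00048 in WT clones, which is past the limit, and 0.016 in KO-labelled libraries. The latter was 0.034 with the block and without KOE2 and KOF4. DESeq2 called it in both genotypes (adjusted p 0.00043 and 0.00060).

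TRIM15, named after its values were seen, had 0, 5, 7, 15 and 5 counts in untreated and 40, 26, 23, 59 and 10 in treated WT clones. Libraries labelled KO had 21, 0, 9, 16 and 13 counts untreated and 64, 0, 56, 124 and 106 treated, and KOC5 had none in either state. The log2 fold changes of 2.23 ± 0.71 (adjusted p 0.067 by edgeR) and 2.52 ± 1.03 (adjusted p 0.17) were not called. The block brought both past the limit (adjusted p 0.0087 and 0.0091), but the second was 0.079 without KOE2 and KOF4. TRIM15 and TRIM10 overlap on opposite strands by 4.20% of the exon bases of TRIM15, and the strand setting of the counting is not given.

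Further genes passed the looser rule alone. TRIM56, which binds viral RNA and acts in STING signalling, had log2 fold changes of 0.93 ± 0.21 in WT clones (adjusted p 0.016 by edgeR) and 0.89 ± 0.18 in KO-labelled libraries (adjusted p 0.015). Its clones agreed closely, with differences on the log2(CPM + 0.1) scale from 0.89 to 1.02 in WT and from 0.69 to 0.99 in KO clones as labelled, always under 2-fold but for WT6. TRIM39, which regulates apoptosis and was named after its values were seen, passed in both genotypes (0.57 ± 0.13, adjusted p 0.017, and 0.67 ± 0.15, adjusted p 0.022). Of its exon bases, 26.6% are shared with the readthrough gene TRIM39-RPP21. TRIM26 (0.51 ± 0.12, adjusted p 0.019) and TRIM8 (0.61 ± 0.16, adjusted p 0.033), a regulator of cytokine signalling, passed in WT clones, and had 0.39 ± 0.13 (adjusted p 0.089) and 0.54 ± 0.15 (adjusted p 0.053) in KO-labelled libraries.

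On the lower side, TRIM46, which organises microtubules at the axon initial segment, had a log2 fold change of -1.16 ± 0.30 in WT clones (adjusted p 0.029 by edgeR) and -0.82 ± 0.28 in KO-labelled libraries (adjusted p 0.10). With the clone as a block its adjusted p in WT clones was 0.00015, which is past the limit. TRIM3, an NHL-repeat protein that moves along the endosomal and kinesin system, had -0.63 ± 0.18 (adjusted p 0.048) and -0.68 ± 0.19 (adjusted p 0.051). Its KO-labelled libraries had 15.5 to 18.7 CPM untreated and 7.88 to 14.9 CPM treated, with no overlap, and in WT clones the ranges were 12.2 to 19.5 and 7.90 to 13.6 CPM, which overlapped.

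**Figure D3:**
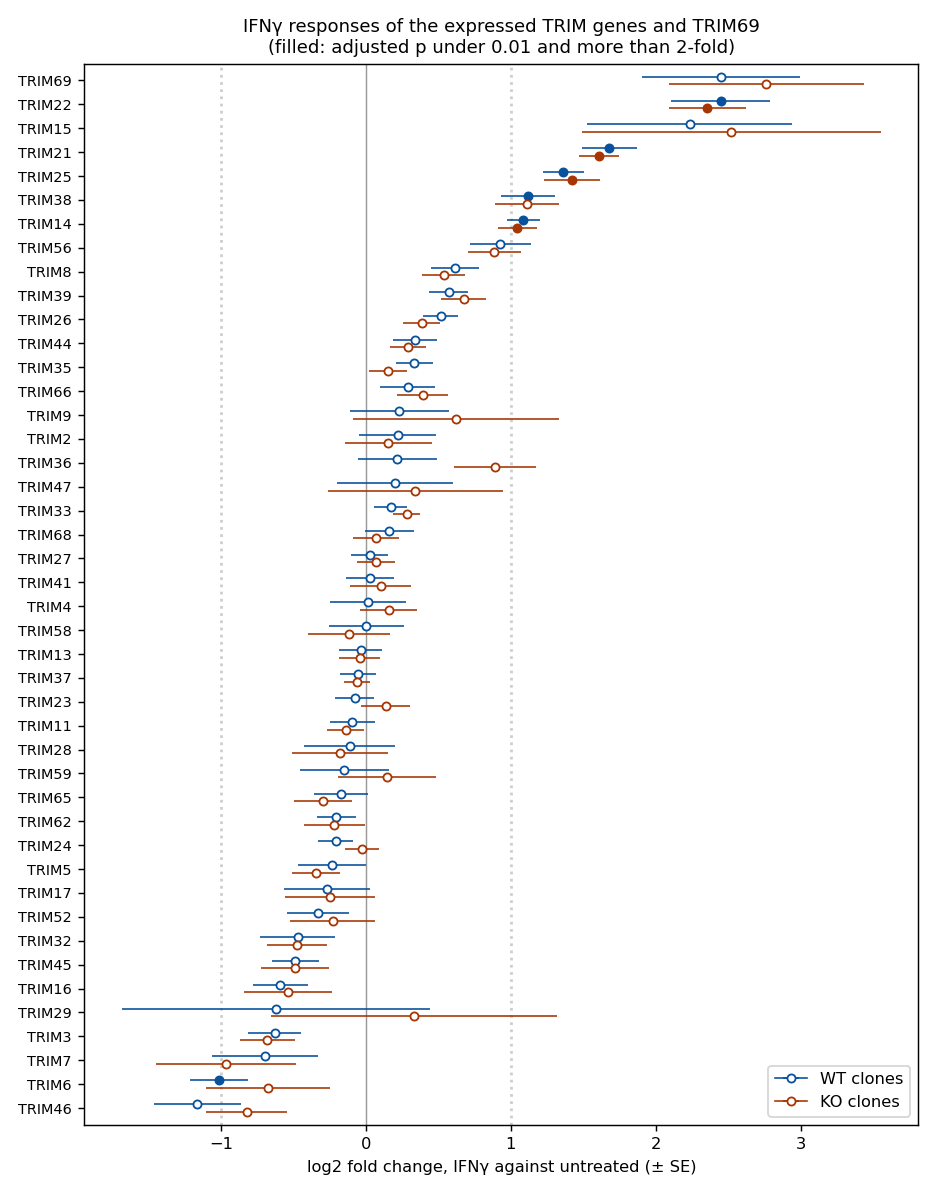
log2 fold change of treated against untreated libraries with its SE (edgeR, 5 against 5 libraries) for the 43 expressed TRIM genes and TRIM69, in WT clones (blue) and KO-labelled libraries (brown). Filled points passed both limits, an adjusted p under 0.01 and more than 2-fold (dotted lines). TRIM22, TRIM21, TRIM25 and TRIM14 are filled in both genotypes, and TRIM38 and TRIM6 in WT clones alone, with the difference between genotypes tested apart and not called.

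The other expressed genes did not pass either rule. Of the 43 expressed genes, 37 were not called in WT clones, and 27 of these had log2 fold changes within 0.5 of 0. In KO-labelled libraries 39 were not called, again with 27 within 0.5. By their roles these included the chromatin regulators TRIM28 (-0.11 ± 0.31 in WT clones), TRIM24 (-0.21) and TRIM33 (0.17), and TRIM27 (0.03 ± 0.13), TRIM37 (-0.05), TRIM13 (-0.04) and TRIM11 (-0.09). The error of TRIM28, whose clones were widely spread, was larger than that of TRIM27. TRIM47, a SPRY gene, and TRIM9, a neuronal COS-box gene, were also widely spread, from 3.02 to 39.6 and from 0.111 to 2.10 CPM per kb over the 20 libraries. TRIM36 had 0.22 ± 0.28 in WT clones and 0.89 ± 0.28 in KO-labelled libraries (adjusted p 0.079 by edgeR). TRIM16 (-0.59 ± 0.19 in WT clones), TRIM32 (-0.47 ± 0.26), TRIM45 (-0.49 ± 0.16) and TRIM7 (-0.70 ± 0.36) lay on the lower side, with adjusted p values of 0.068 to 0.29. TRIM2, TRIM4, TRIM17, TRIM23, TRIM29, TRIM35, TRIM41, TRIM44, TRIM52, TRIM58, TRIM59, TRIM62, TRIM65, TRIM66 and TRIM68 had log2 fold changes between -0.62 (TRIM29) and 0.39 (TRIM66) over both genotypes. None of the 4 PHD-bromodomain, 3 NHL-repeat, 5 COS-box and 5 other-domain genes tested was called by edgeR in WT clones without the block. Of those with a SPRY domain 6 of 24 were called, and none of the 7 without a known C-terminal domain. With the clone as a block, where 7.24% of all genes were called, the COS-box gene TRIM46 and the SPRY genes TRIM15 and TRIM69 were added. At an unadjusted p under 0.05, 18 of the 48 genes passed in WT clones, where 24.9% of all genes did, and 18 of 47 in KO-labelled libraries, where 23.5% did.

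The list of 16 antiviral TRIM genes, drawn up with earlier results of these data known, held all 6 called genes. Of its 15 tested members in WT clones 5 rose and 1 fell, where 2.48% of all genes were called higher and 0.512% lower, and the median log2 fold change was 0.51. Of 14 in KO-labelled libraries 4 rose, where 1.70% of all genes were called higher, and the median was 0.64, beside -0.03 over all genes in each case. TRIM65 (-0.17 ± 0.18 in WT clones), TRIM23 (-0.08 ± 0.13), TRIM27, TRIM28 and TRIM5 of this list did not pass either rule. TRIM31 had 0 to 29 counts per library and a log2 fold change of -0.23 ± 0.58. Being on the antiviral list thus did not go with a call for 9 of its 15 tested members.

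The promoter letters can be set beside these values. Of the 9 genes with an ISRE match, 8 were tested, and 2 of them (TRIM14 and TRIM21) were called higher in both genotypes. Of all genes, 2.48% were called higher and 0.512% lower in WT clones, and 1.70% and 0.258% in KO-labelled libraries. TRIM69 and TRIM26, also in this set, passed the looser rule in WT clones, while TRIM2, TRIM5, TRIM16 and TRIM44 passed neither rule. The median log2 fold change of the 8 tested genes with a match was 0.43 in WT clones and 0.34 in KO-labelled libraries. Over the tested genes whose windows held no ISRE match it was -0.07 (28 genes) and 0.07 (27 genes). Of those 28, TRIM25 and TRIM38 were called higher and TRIM6 lower in WT clones. Of the 27, TRIM25 was called higher in KO-labelled libraries. TRIM22 is in neither set, since its promoter was not searched. None of the 6 tested genes with a GAS match was called without the block, and TRIM46, TRIM3 and TRIM15 were among them. With the clone as a block, edgeR called TRIM46 lower and TRIM15 higher in WT clones (adjusted p 0.00015 and 0.0087). In that fit 7.24% of all genes were called.

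WT clones were then compared with KO-labelled libraries. Without IFNγ 0 of 45 TRIM genes were called by edgeR, where 0.0154% of all genes were, and with IFNγ 0 of 48, where 0.0155% were. At an unadjusted p under 0.05 the count was also 0 in each comparison, where 4.79% and 4.35% of all genes passed, and DESeq2 called 0. The smallest unadjusted p untreated belonged to TRIM8 (0.084), TRIM68 (0.11) and TRIM35 (0.13), each with an adjusted p of 0.98. TRIM8 had 45.2, 60.7, 50.3, 67.3 and 74.1 CPM in WT clones and 58.2, 83.7, 62.6, 83.4 and 82.5 CPM in KO-labelled libraries, which overlapped, at -0.31 ± 0.16 on the log2 scale (WT against KO). TRIM68, also known as the autoantigen SS-56, was at -0.23 ± 0.13 and TRIM35, a regulator of IRF7 and pyruvate kinase, at -0.19 ± 0.12.

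With IFNγ the smallest unadjusted p belonged to TRIM23 (0.070), TRIM31 (0.086) and TRIM36 (0.090), each with an adjusted p of 0.996. TRIM23, whose C-terminus is an ARF domain, ranged from 17.8 to 22.2 CPM in treated WT clones and from 20.02 to 29.7 CPM in treated KO-labelled libraries, at -0.32 ± 0.16. TRIM36, which associates with microtubules, was at -0.57 ± 0.31, and its ranges of 3.28 to 7.21 and 4.91 to 11.8 CPM overlapped. Among expressed genes the log2 differences ran from -0.47 (TRIM28) to 0.36 without IFNγ and from -1.24 (TRIM15) to 0.23 with it. The p-values of this size do not show that the genotypes are alike.

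The difference between the responses of the genotypes was fitted over all 20 libraries, and 0 of 50 TRIM genes were called by edgeR (0% of all genes), 0 at an unadjusted p under 0.05 (0.409% of all genes) and 0 by DESeq2. This fit had no term for the clone, so that treated and untreated libraries of a clone counted as independent. Few genes of any kind passed it, so 0 calls do not show that the responses are alike. For the genes called higher in WT clones, the WT response minus the KO response was 0.07 ± 0.43 for TRIM22, 0.05 ± 0.23 for TRIM21, -0.08 ± 0.24 for TRIM25, 0.02 ± 0.17 for TRIM14 and -0.01 ± 0.30 for TRIM38 on the log2 scale. Each of these lay well within 1 SE of 0. The difference for TRIM6, the gene called lower, was larger and is given above. An exact permutation test over all splits of the clones' own differences, paired as labelled, gave an unadjusted p of 0.048 for TRIM23, at -0.19, and 0.087 or more for the other 23 genes tested, with adjusted values of 0.89 or more for all 24. Without KOE2 and KOF4 the fit over all genes also called 0 TRIM genes. With the clone as a block, edgeR called 0 of 50, and 0 passed an unadjusted p under 0.05, where 317 of 21052 genes did. With the block and without KOE2 and KOF4 it called 0 of 51. There 3 passed an unadjusted p under 0.05, where 576 of 21718 genes did.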

How the data were processed

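RNA-seq counts were analysed for 20 libraries, 5 clones in each of 4 groups. The authors deposited raw counts per RefSeq gene, made with STAR 2.7.9a on GRCh38 (unique mappers kept) and featureCounts 2.4.0. The libraries were stranded; the strand setting of the counting is not given in the sources used here. The deposited gene length, another column of that table, was used for levels per length. Each comparison was fitted with edgeR 4.0.16 (R 4.3.3; TMM, its filter on low counts, robust quasi-likelihood) on its own 10 libraries, and the difference between responses on 20. These main fits had no term for the clone and did not pair its libraries. A block for the clone was an alternative. DESeq2 1.42.0, with shrinkage as named in the study's methods and without, was an alternative. p-values were adjusted by Benjamini-Hochberg over all genes tested, and limits (0.01, 2-fold) are the study's. A standard error is the size of the log2 fold change divided by the square root of F. Exact two-sided permutation tests used log2(CPM + 0.1) over all splits of 5 against 5. The fits were tested on simulated data.

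The TRIM genes, the gene lists and the tests were chosen with earlier results of these data known. Genes described in depth were those called in any comparison, the 5 largest rises and falls past an adjusted p of 0.05 in either response, the 6 highest per length, the 3 smallest p in each comparison of genotypes, the chromosome 11 neighbours and the antiviral list; TRIM15 and TRIM39 were added after their values were seen. Treated and untreated libraries were paired by clone name in the labels: over 14281 genes their deviations from the group means correlated at 0.803 to 0.910 in WT clones and at 0.793, 0.861, 0.709, -0.0084 and 0.058 in KOC3, KOC5, KOD2, KOE2 and KOF4, while WT and KO libraries of the same number, which share no clone, ranged from -0.30 to 0.23. Columns left unmapped numbered 0.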

Additional observations from a re-analysis of the deposited data

Results flagged for a closer look

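Among 91 groups of 5 libraries of the genes described in depth, 5 held a library whose gap to the nearest other exceeded 0.71 of the group's range, Dixon's 95% limit for 5 values. Chance alone sets apart about 1 in 20 such groups. Untreated WT6 was high for TRIM22, at 83.7 CPM against 37.9 CPM in the next clone, and low for TRIM27, at 49.98 CPM against 65.0 CPM. Untreated WT5 was low for TRIM5, at 29.7 CPM against 56.8 CPM, and for TRIM3, at 12.2 CPM against 17.4 CPM. Treated WT5 was low for TRIM68, at 14.6 CPM against 23.5 CPM. WT5 also had the lowest TRIM5 among treated WT clones, at 26.1 CPM.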

How the results depend on the processing

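The number of TRIM genes called in WT clones was 6, and it was 13 at an adjusted p under 0.05 with any fold, 8 with DESeq2, 5 with shrinkage, 5 with all 20 libraries fitted together and 9 with a replicate block for the clone. The share of all genes called was 3.0%, 11.3%, 5.00%, 3.52%, 2.69% and 7.24% in turn. With shrinkage TRIM69 was gained, while TRIM38 (log2 fold change 0.996) and TRIM6 (-0.892) were lost. Leaving out 1 clone gave 3 to 5, where 1.62% to 2.32% of all genes were called. The lowest number was without WT1, where TRIM22, TRIM38 and TRIM6 were lost. In KO-labelled libraries the number was 4, and it was 8 under the looser rule, 6 with DESeq2, 3 with library totals, 6 with the block, 2 to 5 without 1 clone (2 without KOE2), 0 without the clones KOE2 and KOF4 and 2 with the block and without both. The share of all genes called was 1.96% there, 7.88% under the looser rule, 4.26% with DESeq2, 1.90% with library totals and 3.72% with the block. Without 1 clone it was 0.676% to 2.49%. With shrinkage 4 were called (3.18% of all genes), with TRIM69 gained and TRIM14 lost at a log2 fold change of 0.992. TRIM14 was also lost with library totals (0.998). The cause was not tested. The shrunk DESeq2 fit was not run for the difference between responses. Comparisons of genotypes and of responses gave 0 in every setting run, including one with the replicate number as a block, which for WT against KO joins clones that share only a number. The block for the clone changed no other call than those named beside the results. The number expressed was 43, and settings of 0.5 and 5 CPM moved it by less than 1.5 times. The median log2 fold change over the TRIM genes tested was -0.059 with library totals in WT clones, and -0.023 without a filter on low counts in KO-labelled libraries, where more genes near 0 counts enter. Small changes turned sign for TRIM27 in WT clones (-0.044 with library totals, -0.0098 to 0.057 without 1 clone), for TRIM28 in KO-labelled libraries (-0.42 to 0.11 without 1 clone, positive without KOE2) and for TRIM68 there (-0.015 to 0.13, negative without KOC5). Depth limits the genes under about 1 CPM, such as TRIM69, TRIM15 and TRIM31.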

Other observations

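Genes of the TRIM family that carry other names gave further values. MID2, also called TRIM1 and a microtubule-associated ligase, was called higher after IFNγ in both genotypes by edgeR, at a log2 fold change of 1.17 ± 0.24 (adjusted p 0.0090) in WT clones and 1.14 ± 0.15 (adjusted p 0.0011) in KO-labelled libraries. It was called in 7 of 13 fits in WT clones and in 10 of 15 in KO-labelled libraries. Of the edgeR fits that left out 1 clone it was called in 1 of 5 and 2 of 5, with adjusted p values up to 0.051 and 0.018. Over all 15 fits in KO-labelled libraries the adjusted p reached 0.13. PML, the organiser of nuclear bodies, had 1.06 ± 0.24 (adjusted p 0.018) and 0.76 ± 0.20 (adjusted p 0.041) and was not called in the main edgeR fits. It was called in 4 of 13 fits in WT clones and in 0 of 15 in KO-labelled libraries. Of 18 such genes 6 were tested in WT clones and 7 in KO-labelled libraries, and MID2 was the 1 called in each main fit. Of all genes, 3.0% were called in WT clones and 1.96% in KO-labelled libraries.

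Among partners of TRIM proteins, 3 of 22 tested were called higher in each genotype and none lower. Of all genes, 2.48% were called higher and 0.512% lower in WT clones, and 1.70% and 0.258% in KO-labelled libraries. UBE2L6, the conjugating enzyme for ISG15, had a log2 fold change of 3.77 ± 0.13 in WT clones and 3.93 ± 0.28 in KO-labelled libraries. ISG15 itself had 3.37 ± 0.22 and 3.54 ± 0.45, and DDX58, which encodes RIG-I, had 1.62 ± 0.15 and 1.69 ± 0.14. The conjugating enzymes used by many TRIM ligases, such as UBE2N and the UBE2D genes, were not called.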
